A study of Homo sapiens with 5 samples.

Results

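This section describes 2 blocks of closely spaced ChIP-seq peaks on the long arm of human chromosome 18, at chr18:22000001-27000000 and chr18:36000001-46000000 of build hg19, and the stretch of chr18:27000001-36000000 between them. The members are all peaks of 6 lists whose midpoint lies in either block: 14376 of the 1150695 peaks deposited for the series, against 4434 in the stretch between. The peaks come from U2932 cells, an established human lymphoma line grown without treatment, in which chromatin was cross-linked, sonicated and precipitated in 1 library each with PRDM11 antibody 1, PRDM11 antibody 2 (both non-commercial rabbit polyclonal antibodies) or an antibody against RNA polymerase II. Each of the 3 ChIP libraries has 1 list called against a rabbit IgG library and 1 called against an unprecipitated input library, at a q threshold of 0.1 by the names of the lists. With 1 library per antibody no value has a replicate error and no test between conditions was possible; intervals are exact 95% binomial intervals over peaks. They take each peak as independent and include no error other than that of counting. The 2 lists of a library rest on the same ChIP reads, and the 3 lists of a control rest on the same control reads, so they are not independent of each other.

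ChIP-seq finds where a protein sits on DNA by sequencing the fragments an antibody pulls down. A peak caller reports a peak where the ChIP reads exceed what the control library predicts at that place, so that each list depends on both libraries. RNA polymerase II transcribes protein-coding genes, and its peaks mark mainly promoters and transcribed genes. PRDM11 is a member of the PR domain family of chromatin proteins. Genes known on this part of the long arm include, in RefSeq's order, the zinc finger gene ZNF521, the cadherin gene CDH2, the desmocollin and desmoglein cluster of desmosomal cadherins, the chromatin-binding protein gene SETBP1, and SMAD2, which transmits signals of the TGF-beta family. The gene table used here is of another build than the peak lists, so no gene was placed in a block and no peak was assigned to a gene.

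The blocks had been chosen from bins of 1 Mb in which antibody 1 had 50 or more peaks with the input control, and 5 or more times its number with the IgG control plus 1, so antibody 1 densities here are a description. At the left edge of the first block, the bin from 21 to 22 Mb held 8 antibody 1 peaks against input and the bin from 22 to 23 Mb held 212. At its right edge the counts were 59 inside (26 to 27 Mb) and 19 outside (27 to 28 Mb). For the second block they were 16 outside and 134 inside at the left edge (35 to 37 Mb), and 161 inside and 15 outside at the right edge (45 to 47 Mb). Against IgG these 8 bins held between 0 and 5 antibody 1 peaks.

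Both blocks were denser than the stretch between them in peaks called against input, in all 3 libraries, and less so or not at all in peaks called against IgG. The first block held 1559 antibody 1 peaks against input, or 31.2 per 100 kb, and 23 against IgG, or 0.46 per 100 kb. The second block held 1716 against input (17.2 per 100 kb) and 28 against IgG (0.28 per 100 kb). In the stretch between, antibody 1 had 242 peaks against input (2.69 per 100 kb) and 41 against IgG (0.456 per 100 kb). The first block was thus 11.6 times and the second 6.38 times as dense as the stretch between against input, while against IgG the folds were 1.01 and 0.615.

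RNA polymerase II peaks against input were also denser in both blocks. They had not served to choose the blocks, although they share the input library with those that had. RNA polymerase II had 933 peaks against input in the first block (18.7 per 100 kb), 825 in the second (8.25 per 100 kb) and 154 between them (1.71 per 100 kb). Against IgG the numbers were 87 (1.74 per 100 kb), 87 (0.87 per 100 kb) and 74 (0.822 per 100 kb). The density against input was 10.9 times that of the stretch between in the first block and 4.82 times in the second. Against IgG it was 2.12 and 1.06 times as high. In the second block 674 of the RNA polymerase II peaks against input lay from 42.08 to 45.7 Mb (18.6 per 100 kb). From 36.2 to 42.08 Mb there were 151 (2.57 per 100 kb), nearer to the density of the stretch between.

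Antibody 2 differed from the other libraries in that its list against IgG was already dense. It had 992 peaks against IgG in the first block (19.8 per 100 kb), 2496 in the second (24.96 per 100 kb) and 1848 between them (20.5 per 100 kb). Against input it had 1956 (39.1 per 100 kb), 3674 (36.7 per 100 kb) and 2075 (23.1 per 100 kb). Its fold over the stretch between was therefore 1.70 and 1.59 against input and 0.966 and 1.22 against IgG. In absolute terms the added peaks were not few: the list against input held 19.3 more antibody 2 peaks per 100 kb than the list against IgG in the first block and 11.8 more in the second, beside 30.7 and 16.9 more for antibody 1 and 16.9 and 7.38 more for RNA polymerase II.

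**Figure D1:**
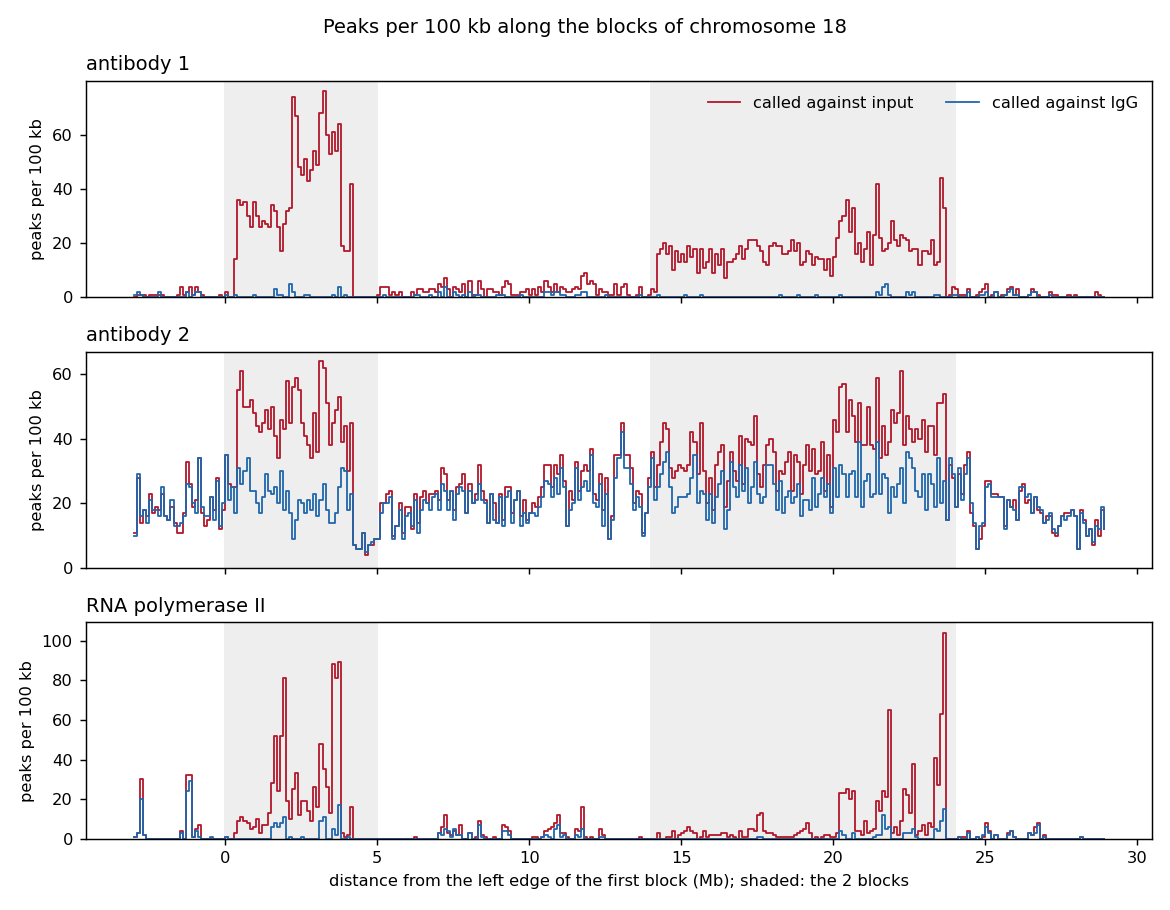
Peaks per 100 kb in each list, against distance in Mb from the left edge of the first block, with lists called against input in red, lists called against IgG in blue and the 2 blocks shaded. The red lines stand above the blue ones inside the blocks, by a median of 31 against 0 peaks per bin for antibody 1 in the first block and 17 against 0 in the second.

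In the first block antibody 1 had 0 to 76 peaks per bin against input (median 31) and in the second 0 to 44 (median 17), against 0 to 9 (median 2) between the blocks. The ranges overlapped, and 11 bins inside the blocks were empty, 10 of them in the first block. The bin with most antibody 1 peaks against input in the first block, chr18:25200001-25300000 with 76, had 0 against IgG, 62 and 26 for antibody 2 against input and IgG, and 35 and 11 for RNA polymerase II. In the second block it was chr18:45500001-45600000 with 44 against input and 0 against IgG, where antibody 2 had 51 and 20 and RNA polymerase II had 63 and 9. Of the 150 bins of the blocks, 132 (88.0%) had at least 5 times as many antibody 1 peaks against input as against IgG plus 1, where 2.59% of 30356 bins of chromosomes 1 to 22 and X did; the blocks were chosen by this contrast in wider bins. For RNA polymerase II the count was 55 of 150 (36.7%), with 0.952% of all bins, and by block it was 29 of 50 and 26 of 100. For antibody 2 it was 1 of 150, with 0.474% of all bins. Its bins in the blocks held a median of 23 peaks against IgG and at most 64 against input. Most of them could therefore not reach the limit, and this count does not compare with those of the other libraries. Of the 90 bins between the blocks, 7 passed in the antibody 1 lists, 1 in those of RNA polymerase II and 0 in those of antibody 2.

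The stretch between the blocks had more antibody 1 peaks against input than either flank. Its 2.69 antibody 1 peaks per 100 kb against input compare with 0.967 in the 3 Mb left of the first block (19 to 22 Mb) and 1.04 in the 5 Mb right of the second (46 to 51 Mb), which is 2.78 and 2.59 times as many. Against IgG the 3 densities were 0.456, 0.433 and 0.46. RNA polymerase II was different: against input it had 1.71 per 100 kb between the blocks, 3.9 in the left flank and 1.06 in the right, and against IgG 0.822, 2.97 and 0.84. The ratio of antibody 1 peaks against input to those against IgG was 5.90 (4.23 to 8.43) between the blocks, 2.23 (1.12 to 4.67) in the left flank and 2.26 (1.36 to 3.87) in the right flank. In the blocks it was 67.8 (45.01 to 107.2) and 61.3 (42.3 to 92.5), and over chromosomes 1 to 22 and X it was 4.00. These intervals treat the 2 counts as separate draws, although 38 of the 41 IgG peaks between the blocks overlapped input peaks. For antibody 2 the ratios were 1.97 and 1.47 in the blocks, 1.12 between them, and 1.01 and 1.00 in the flanks, and for RNA polymerase II they were 10.7 and 9.48, 2.08, and 1.31 and 1.26. Outside 22 to 46 Mb, chromosome 18 as a whole, flanks included, had 10113 antibody 1 peaks against input and 236 against IgG. That is a ratio of 42.9 (37.7 to 48.96). The ratio there was 2.60 (2.52 to 2.67) for antibody 2, above both blocks, and 9.48 (8.87 to 10.1) for RNA polymerase II. These totals do not describe a typical bin. For antibody 1 against input, 305 of the 540 bins of 100 kb there were empty, the median was 0 and the highest count 148. In each flank the median was 1.

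The borders of the blocks were located in each list against input. A single change point in bins of 100 kb within 1 Mb of each edge of the rule fell at 22.4, 26.2, 36.2 and 45.7 Mb in each of them. With bins of 50 kb the border at 36.2 Mb moved to 35.15 Mb for antibody 2 and 36.55 Mb for RNA polymerase II, and with a window of 2 Mb the border at 26.2 Mb moved to 25.8 Mb for antibody 1 and RNA polymerase II and that at 22.4 Mb to 23.5 Mb for RNA polymerase II. A place shared by the 3 libraries thus depended on the setting at 3 of the 4 borders. The first block thus began about 0.4 Mb inside the rule's edge and ended 0.8 Mb before it. Across the left border of the first block the mean went from 1.71 to 32.7 peaks per 100 kb for antibody 1. It went from 22.1 to 52.7 for antibody 2, and RNA polymerase II had 1.14 before and 8 after. In the lists against IgG the change points were at 21.1, 21.2 and 22 Mb for the same edge. Only the last, that of antibody 2, led to a higher mean (19.9 before and 26.7 after).

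The 2 right borders were abrupt to within a few kb for antibody 1 and RNA polymerase II. At the end of the first block the last antibody 1 peak against input ended at 26188455 and the last RNA polymerase II peak at 26188689. After these, antibody 1 had no peak against input for 907.4 kb, up to 27095852, and RNA polymerase II none for 2017 kb. Antibody 2 had peaks on both sides, so its last peak before 26.2 Mb (ending at 26190959) depends on that cut and locates no border. In the 100 kb left and right of 26.2 Mb the counts against input were 42 and 0 for antibody 1. They were 45 and 7 for antibody 2, and 16 and 0 for RNA polymerase II. At the end of the second block the last antibody 1 peak against input ended at 45688828 and the last of RNA polymerase II at 45689466. The last of antibody 2 before 45.7 Mb, at 45694727, likewise depends on the cut. The counts in the 100 kb on either side of 45.7 Mb were 33 and 0, 54 and 15, and 104 and 0 in the order antibody 1, antibody 2, RNA polymerase II. For antibody 2 the counts against IgG were 27 and 15 there, and 23 and 7 at 26.2 Mb, but in 500 kb on either side of 45.7 Mb they were 126 and 128, beside 235 and 123 against input. The RNA polymerase II list against IgG also had 15 peaks before 45.7 Mb and 0 after it.

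**Figure D2:**
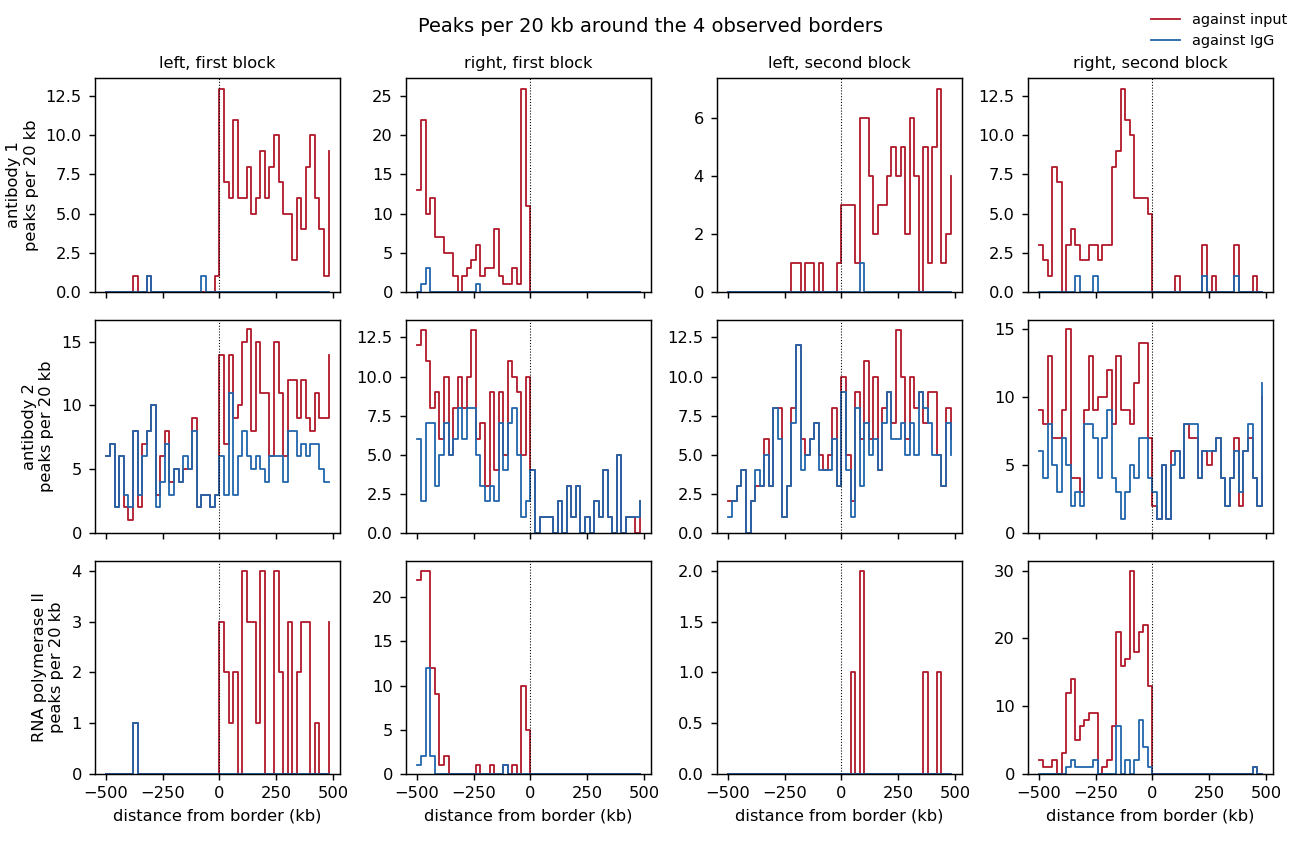
Peaks per 20 kb against distance in kb from the 4 observed borders (columns) for the 3 libraries (rows), with lists against input in red and against IgG in blue; axes differ in height. Antibody 1 peaks against input go from 42 in the last 100 kb of the first block to 0 in the next, and from 33 to 0 at the end of the second.

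The left border of the second block was the least sharp. In the 500 kb left and right of 36.2 Mb, antibody 1 had 6 and 89 peaks against input, antibody 2 had 117 and 190, and RNA polymerase II had 0 and 5. Antibody 2 had 107 and 148 against IgG at the same place, so its lists differ less here than at the other borders. At the left border of the first block the counts in 500 kb were 3 and 168 for antibody 1. They were 121 and 273 for antibody 2, and 1 and 44 for RNA polymerase II. The first antibody 1 peak of the dense part started at 22384823 and the first of RNA polymerase II at 22389511. Before it RNA polymerase II had no peak against input for 382.5 kb.

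Within the blocks the density differed in steps. Dividing the antibody 1 list against input between 19 and 51 Mb into runs of constant density, in bins of 20 kb, gave 9 runs, and the same procedure on its list against IgG gave 1. The first block held 3 dense runs: 30.1 peaks per 100 kb from 22.38 to 24.2 Mb, 57.4 from 24.2 to 25.78 Mb, and 24.3 from 25.78 to 26.2 Mb. The second held 2, with 15.5 per 100 kb from 36.2 to 42.08 Mb and 21.96 from 42.08 to 45.7 Mb. These levels follow from the way the runs were drawn. The lists of the other libraries were not used to draw them.

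The excess of peaks against input over those against IgG was highest in the same run in all 3 libraries. Peaks against input in excess of those against IgG numbered 56.8 (antibody 1), 29.9 (antibody 2) and 31.6 (RNA polymerase II) per 100 kb in the run from 24.2 to 25.78 Mb, which ranked first in each library. The run from 22.38 to 24.2 Mb ranked second in each, with 29.5, 23.4 and 17.4. From 42.08 to 45.7 Mb the excess was 21.4, 18.3 and 16.3, and from 36.2 to 42.08 Mb it was 15.4, 8.74 and 2.53. The libraries differed in 1 place among the dense runs: the short run from 25.78 to 26.2 Mb came before the run from 42.08 to 45.7 Mb for antibody 1 (24.05) and after it for antibody 2 (14.8) and RNA polymerase II (7.14). From 27.08 to 36.2 Mb, between the blocks, the excess was 2.26, 2.55 and 0.877. The density of antibody 2 against input was nearly equal in the first 2 dense runs (47.8 and 48.4 per 100 kb), and its excess differed there with its density against IgG (24.4 and 18.5). Divided on its own, the antibody 2 list against input formed 1 run from 22.38 to 26.2 Mb and had no step at 24.2 Mb or 36.2 Mb. That of RNA polymerase II formed 1 run from 29.04 to 42.26 Mb (2.33 per 100 kb) and likewise had no step at 36.2 Mb.

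**Figure D3:**
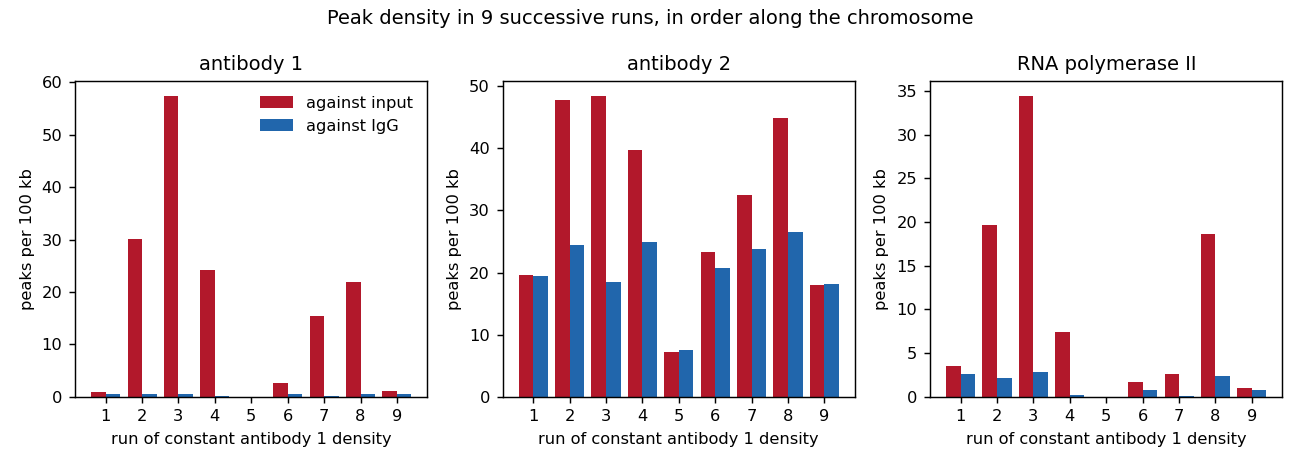
Peaks per 100 kb in 9 successive runs of constant antibody 1 density, numbered along the chromosome from 19 to 51 Mb, against input (red bars) and IgG (blue bars). Runs 2 to 4 make up the dense part of the first block, run 5 is the stretch without antibody 1 peaks, run 6 lies between the blocks and runs 7 and 8 form the second block.

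The run from 26.2 to 27.08 Mb belongs to the first block by the rule but was sparse in all 6 lists. Antibody 1 and RNA polymerase II had 0 peaks in it with either control. Antibody 2 had 66 peaks against IgG (7.50 per 100 kb) and 64 against input (7.27 per 100 kb), compared with 24.4 and 47.8 per 100 kb from 22.38 to 24.2 Mb and with 20.8 and 23.3 from 27.08 to 36.2 Mb. It is the run in which the antibody 2 lists of both controls were lowest. The longest stretch of either block without a peak of any library against input, 51.8 kb at chr18:26285525-26337370, lies in it. In the second block the longest such stretch was 20.7 kb, at chr18:45759136-45779818, just beyond its observed right border.

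The run from 36.2 to 42.08 Mb shows the contrast between controls over a part where the IgG lists of antibody 1 and RNA polymerase II were nearly empty. Over its 5.88 Mb antibody 1 had 911 peaks against input and 6 against IgG. RNA polymerase II had 151 and 2, and antibody 2 had 1914 and 1400. For antibody 1 against input, over 294 bins of 20 kb the count ranged from 0 to 8 with a median of 3, and the variance was 0.909 times the mean. In the other dense runs this ratio was 0.949 (22.38 to 24.2 Mb), 1.51 (24.2 to 25.78 Mb), 6.08 (25.78 to 26.2 Mb) and 1.48 (42.08 to 45.7 Mb). The runs were drawn from these same counts as stretches of constant density, which favours a low ratio in them for antibody 1. Counts scattered independently at 1 constant rate would give a ratio of 1, and a clustered list gives more.

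RNA polymerase II peaks against input stood in clusters. In the 5 dense runs, which were not drawn from this list, their variance was 6.46, 5.78, 5.46, 1.55 and 7.21 times the mean in order along the chromosome, the lowest being that from 36.2 to 42.08 Mb. Clusters were not particular to the dense runs. The ratio was 6.71 from 19 to 22.38 Mb, 3.19 from 27.08 to 36.2 Mb and 2.54 from 45.7 to 51 Mb. In the first block its 2 densest runs against input were 23.58 to 24 Mb (229 peaks, 54.5 per 100 kb) and 25.5 to 25.8 Mb (258 peaks, 86.0 per 100 kb). They overlapped the 2 dense runs of its list against IgG in the block, 23.58 to 23.98 Mb (39 peaks) and 25.18 to 25.78 Mb (44 peaks). The run against input between them, from 24 to 25.5 Mb, held more peaks (324, or 21.6 per 100 kb). Most of it lay over the IgG run from 23.98 to 25.18 Mb, which held 2 peaks. In the second block the densest were 43.64 to 43.9 Mb (108 peaks, 41.5 per 100 kb) and 45.54 to 45.7 Mb (158 peaks, 98.8 per 100 kb).

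Bins of the blocks with and without an RNA polymerase II peak against IgG were compared for the size of this. Both lists of RNA polymerase II come from the same ChIP reads and nearly all of its IgG-called peaks are also called against input, so its own difference is partly fixed by the split and is not comparable with that of the antibodies. The 34 bins of 100 kb with such a peak held 1188 of the 1758 RNA polymerase II peaks against input (67.6%), a mean of 34.9 per bin, and the 116 bins without held a mean of 4.91, a 7.11-fold difference. Even the bins without any IgG-called polymerase peak held 0 to 33 against input (median 3). Antibody 1 had means of 30.1 and 19.4 in the same 2 sets of bins, a 1.55-fold difference, and antibody 2 had 44.3 and 35.6, a 1.24-fold difference. The fold for RNA polymerase II was 4.86 in the first block and 9.36 in the second. In the stretch between it was 21.2, over a mean of only 0.25 in bins without. Antibody 1 had a fold of 1.86 there and antibody 2 of 1.22, so the contrast was not particular to the blocks. Measured as distance, 45.6% (43.3% to 48.0%) of RNA polymerase II peaks against input lay within 10 kb of one against IgG, with 13.9% (12.7% to 15.1%) for antibody 1 and 11.8% (10.9% to 12.6%) for antibody 2. In the stretch between the blocks the polymerase share was 74.0% (66.4% to 80.8%). The shares there were 26.4% (21.0% to 32.5%) for antibody 1 and 12.7% (11.3% to 14.2%) for antibody 2.

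**Figure D4:**
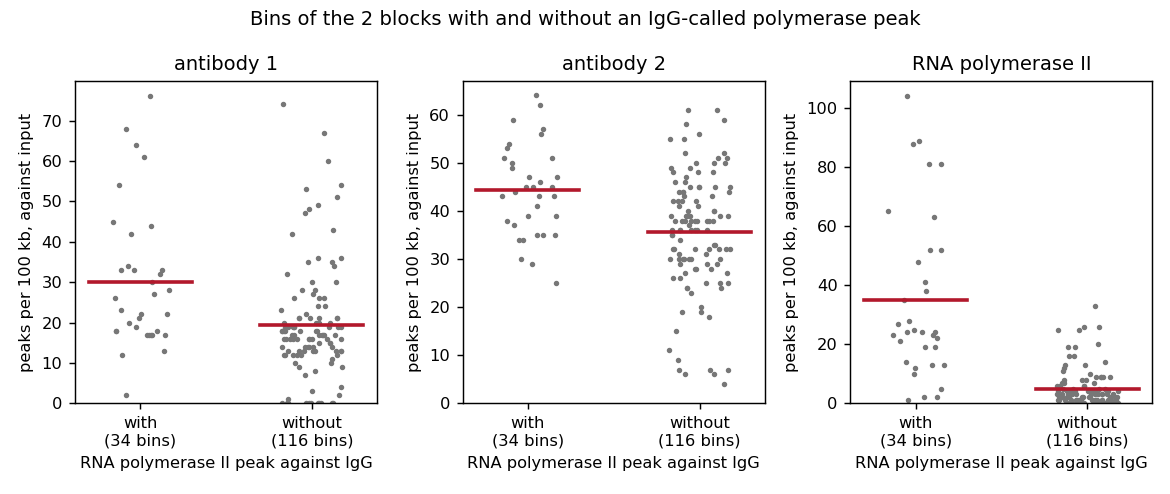
Peaks against input per 100 kb in the bins of the 2 blocks, split by whether the bin holds an RNA polymerase II peak against IgG; points are bins and red lines are means. The means are 34.9 and 4.91 for RNA polymerase II, 30.1 and 19.4 for antibody 1, and 44.3 and 35.6 for antibody 2. The bins without include the sparse ones at the end of the first block.

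Spacing and width give a finer view of the added peaks. Neighbouring antibody 1 midpoints against input were a median of 1394 bp apart in the first block and 3750 bp in the second, against 21964 bp between the blocks. For RNA polymerase II the medians were 1399 bp, 1824 bp and 5322 bp, and for antibody 2 they were 1513 bp, 1819 bp and 2831 bp. Antibody 1 peaks against input covered 6.05% of the first block, 2.84% of the second and 0.485% of the stretch between.

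Widths were compared with those elsewhere. The median width of antibody 1 peaks against input was 158 bp in the first block, 141 bp in the second and 134 bp between. The share at the minimum of 123 bp was 23.9% (21.8% to 26.1%) in the first block, 35.3% (33.0% to 37.6%) in the second and 40.9% (34.7% to 47.4%) between, where 25.1% of this list over chromosomes 1 to 22 and X was of that width. On chromosome 18 outside 22 to 46 Mb the median was 314 bp and 7.32% were at the minimum, so the peaks of the blocks were shorter than that total. In the flanks alone the median was 148 bp (left, 29 peaks) and 147.5 bp (right, 52 peaks). These lie below the median of the first block and above that of the second. For antibody 2 against input the median was 123 bp itself, and the share at it was 74.8% and 75.0% in the blocks and 77.5% between. RNA polymerase II peaks against input had a median of 193 bp and 177 bp in the blocks and 189.5 bp between.

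Peaks called against IgG in the blocks were nearly always found against input. For antibody 1 this held for 49 of 51 peaks, or 96.1% (86.5% to 99.5%), with 81.3% over the whole list. For RNA polymerase II it held for 171 of 174, or 98.3% (95.04% to 99.6%), with 89.4% over the whole list, and for antibody 2 for 97.7% of 3488, with 93.2%. In the stretch between, the shares were 92.7%, 97.3% and 96.6% in the same order of libraries. The reverse shares were low. Of the 3275 antibody 1 peaks against input in the blocks, 45 overlapped one against IgG, or 1.37% (1.00% to 1.83%), where the whole list has 19.5% and the stretch between 15.7% (11.4% to 20.9%). For RNA polymerase II the share was 8.53% (7.27% to 9.94%), with 52.4% over the whole list and 41.6% between the blocks. For antibody 2 it was 60.4% (59.2% to 61.7%), with 89.1% and 86.0%, and it was lower in the first block (49.6%) than in the second (66.2%).

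At single positions the 3 libraries overlapped in the minority of peaks. Of the antibody 1 peaks against input in the blocks, 601 of 3275 overlapped an antibody 2 peak against input by at least 1 bp, or 18.4% (17.0% to 19.7%), where 34.8% of the whole list did and 21.1% (16.1% to 26.8%) of the stretch between. Antibody 2 peaks covered 5.38% of the bases of the blocks. The share that overlapped RNA polymerase II against input was 19.7% (18.3% to 21.1%), where 44.9% of the whole list did, and polymerase peaks covered 2.88% of the bases. It was 27.5% (25.3% to 29.8%) in the first block and 12.5% (11.0% to 14.2%) in the second. Because peaks have width, position alone gives more overlaps of 1 bp than the share of covered bases. The 2 measures therefore do not compare directly. In all, 2218 antibody 1 peaks of the blocks (67.7%) overlapped neither other library and 188 (5.74%) overlapped both. Over the whole list against input these shares were 44.3% and 24.04%. In median width the peaks shared with both were 230 bp and the rest without a partner 142 bp.

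Taken from the other libraries, the shares that overlapped antibody 1 against input were higher in the first block than in the second. Of 5630 antibody 2 peaks in the blocks, 11.2% overlapped antibody 1 (17.5% in the first block, 7.87% in the second and 3.08% between), with 5.05% over the whole list. The share of them that overlapped RNA polymerase II was 8.12% (12.9%, 5.55% and 2.51%), with 6.29% over the whole list. Of 1758 RNA polymerase II peaks, 34.02% overlapped antibody 1 (42.8%, 24.1% and 27.3%), with 29.4% over the whole list. Their share with antibody 2 was 23.9% (24.2%, 23.6% and 24.7%), with 29.6% over the whole list. Antibody 1 peaks covered 6.05%, 2.84% and 0.485% of the bases of the same 3 regions, and antibody 2 peaks 5.62%, 5.26% and 3.24%. Over all chromosomes they covered 0.515% and 2.25%. A list that covers more bases meets more peaks by position alone, so shares at unlike coverage do not compare agreement.

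Overlaps among the IgG lists were near the whole-list share for antibody 1 peaks and below it for antibody 2 peaks. Of the 51 antibody 1 peaks, 25 overlapped antibody 2 against IgG, or 49.0% (34.8% to 63.4%), with 47.2% over the whole list. Overlap with RNA polymerase II against IgG was 24 of 51, or 47.1% (32.9% to 61.5%), with 55.2% over the whole list. Peaks present in all 6 lists numbered 19 of 51 (37.3%, 24.1% to 51.9%), 6 in the first block and 13 in the second, compared with 12 of 41 between the blocks and 29.9% of the whole list. RNA polymerase II peaks against IgG in the blocks overlapped antibody 1 in 24 of 174 cases (13.8%, with 14.3% over the whole list) and antibody 2 in 36 (20.7%, with 25.6%). Antibody 2 peaks against IgG overlapped antibody 1 in 28 of 3488 cases (0.803%, with 1.59%) and RNA polymerase II in 40 (1.15%, with 3.2%).

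The widest antibody 1 peaks were also peaks of the other antibodies. In the first block the widest antibody 1 peak against IgG, 1626 bp at chr18:25755173-25756798, overlapped antibody 2 peaks of up to 1331 bp and RNA polymerase II peaks of up to 1161 bp against IgG. A further antibody 1 peak of 880 bp followed at chr18:25756875-25757754. Against input the 2 were joined in 1 antibody 1 peak of 2851 bp (chr18:25754942-25757792), with antibody 2 at 2425 bp and RNA polymerase II at 2647 bp, which were also the widest peaks of their lists in this block. The next antibody 1 peak against IgG, 731 bp at chr18:23806190-23806920, overlapped an RNA polymerase II peak of 1153 bp and an antibody 2 peak of 172 bp. The widest RNA polymerase II peak against IgG in the block, 1538 bp at chr18:23669890-23671427, held 1 antibody 1 peak of 198 bp. The polymerase peak of 1454 bp at chr18:25204428-25205881 held no antibody 1 peak against IgG, and 1 of 331 bp against input.

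In the second block the widest antibody 1 and RNA polymerase II peaks against IgG coincided, at chr18:44676336-44677120 (785 bp) and chr18:44676380-44677664 (1285 bp), with an antibody 2 peak of 440 bp. A further site, at chr18:43754077-43754756 (680 bp, antibody 1), lay in peaks of 1590 bp against input for antibody 1 and 1757 bp for RNA polymerase II. The next, at chr18:43652097-43652689 (593 bp), overlapped a polymerase peak of 1017 bp. The widest antibody 2 peak against IgG, 790 bp at chr18:43547167-43547956, overlapped an antibody 1 peak of 384 bp and a polymerase peak of 517 bp. The next, 476 bp at chr18:43088786-43089261, had no peak of antibody 1 or RNA polymerase II with either control. Between the blocks the widest antibody 1 peak was 1005 bp against IgG, at chr18:29598575-29599579, and 1412 bp against input, and it too was in all 6 lists. In the second block the 13 antibody 1 peaks that were in all 6 lists, a set chosen after its values were seen, started at 42259120 or beyond, in the denser of its 2 runs.

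Counts per 100 kb were also set against each other within the blocks. Over the 50 bins of the first block antibody 1 and antibody 2 counts against input had r = 0.79 (Pearson) and rho = 0.74 (Spearman), while antibody 1 and RNA polymerase II had r = 0.57 and rho = 0.81. Over the 100 bins of the second block the values were r = 0.66 and rho = 0.61, and r = 0.51 and rho = 0.48. Against IgG, antibody 1 and antibody 2 had r = 0.08 in the first block and 0.23 in the second. Antibody 1 and RNA polymerase II had r = 0.40 in the first and r = 0.51 with rho = 0.53 in the second. The latter 2 were close to their values against input in the second block. Antibody 1 had no peak against IgG in 37 of 50 bins of the first block and 82 of 100 of the second. Its values against IgG thus rest on few bins and do not compare with those against input. Bins share the library, its depth and the input control, neighbouring bins are not independent, and the empty run at the end of the first block enters its values, so these are descriptions. Whether the input library or the IgG library stands apart over the blocks cannot be told apart from lists that hold no reads.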

How the data were processed

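ChIP-seq peak lists of 3 libraries (antibody 1, antibody 2, RNA polymerase II), each against IgG and input, were used as deposited by the authors. Each list has 3 columns (chromosome, start, end) and no score or read count, so depth is unknown. Per the submitters' processing notes, MACS2 2.0.9, SAMtools and Bowtie 0.12.7 were used with build hg19; their settings are not given in the sources used here. Starts, counted from 0, are printed counted from 1.

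The members, the windows and the comparisons were chosen with earlier results of these data known. Peaks were assigned by midpoint and counted in bins of 100 kb. Borders were least-squares change points. The runs were added after seeing the data: an exact division of counts per 20 kb (at least 100 kb per run, Poisson likelihood, cost of a run 3 times the log of the number of bins). Overlap meant at least 1 bp. Peaks named are, by rule, the 3 widest per library against IgG and the 2 widest against input in each region, with the bins of most antibody 1 peaks and the longest empty stretches. Genes, promoters and peak sequences were not analysed, because the reference tables used here are of build GRCh38.p14. The code was tested on simulated data. Python 3.11.15, NumPy 2.4.6, pandas 2.3.3, SciPy 1.17.1 and matplotlib 3.10.9 were used.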

Additional observations from a re-analysis of the deposited data

How the results depend on the processing

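Of 120 alternative values for 47 results, 80 stayed within the reported interval, a factor of 1.5 (densities, counts of runs, widths) or 0.1 Mb (borders). Limiting lists to peaks of 200 bp or wider lowers densities by construction, to 0.127 and 5.55 peaks per 100 kb for antibody 1 against IgG and input, 2.27 and 4.21 for antibody 2, and 0.593 and 5.21 for RNA polymerase II. It also gave ratios of input to IgG of 43.8 for antibody 1 and 1.86 for antibody 2, and 33.3% and 15.3% of bins past the 5-fold limit for antibody 1 and RNA polymerase II. With that limit, 8.40% of antibody 1 peaks overlapped antibody 2 and 21.1% RNA polymerase II. Found-again shares became 1.92% (antibody 1, input in IgG), 97.1% and 51.9% (antibody 2, both directions) and 9.99% (RNA polymerase II, input in IgG). Ratios of covered bases were 39.9 for antibody 1 and 8.08 for RNA polymerase II. Bins of 50 kb gave 77.3% and 22.7% of bins for antibody 1 and RNA polymerase II, and bins of 200 kb gave 60% for RNA polymerase II and 0% for antibody 2. A 3-fold limit gave 60% for RNA polymerase II, and a 10-fold limit 75.3%, 0% and 12.0% for antibody 1, antibody 2 and RNA polymerase II. Requiring 50% coverage, which lowers shares by construction, gave 8.64% and 15.1% for antibody 1 in antibody 2 and RNA polymerase II, and 4.78% for RNA polymerase II against input in its IgG list. With the other list called against IgG those overlaps were 7.54% and 2.50%.

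A window of 2 Mb moved the border at 22 Mb to 23.5 Mb (RNA polymerase II), that at 27 Mb to 25.8 Mb (antibody 1 and RNA polymerase II), and that at 36 Mb to 36 Mb (antibody 2) and 36.7 Mb (RNA polymerase II). At 36 Mb, bins of 50 kb gave 35.15 Mb for antibody 2 and 36.55 Mb for RNA polymerase II, and bins of 20 kb 35.16 Mb for antibody 2. The border at 36.2 Mb thus rests on antibody 1. A cost of 5 times the log, chosen after seeing the data, gave 12 runs for RNA polymerase II in place of 20, and 7 for antibody 1 in place of 9, without the borders at 27.08 and 42.08 Mb. A cost of 2 times the log, also chosen then, gave 30 runs for RNA polymerase II, at the limit of the factor of 1.5. The runs of RNA polymerase II thus depend on the cost. Ending the first block at 26.2 Mb, also chosen then, left all 6 densities within a factor of 1.5. The cause of these changes was not tested, beyond those set by construction. No paired analysis was possible because each antibody has 1 library. Without scores or reads, a stricter threshold could not be applied.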

Other observations

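The list of antibody 2 against IgG, which shows little of the blocks, had steps of its own. Between 19 and 51 Mb it divided into 5 runs: 20.9 peaks per 100 kb from 19 to 26.16 Mb, 7.60 from 26.16 to 27.12 Mb, 18.8 from 27.12 to 32.54 Mb, 24.7 from 32.54 to 46.56 Mb and 16.5 from 46.56 to 51 Mb. The step at 32.54 Mb lies within the stretch between the blocks and is also in the antibody 2 list against input (20.9 to 30.3 peaks per 100 kb). The step at 46.56 Mb lies beyond the second block's observed right border and is absent from the list against input, which steps at 45.7 Mb.

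The right end of the first block held a narrow cluster of antibody 1 and RNA polymerase II peaks. The 40 kb before 26.2 Mb held 26 and 11 antibody 1 peaks against input in its 2 bins of 20 kb, where the 8 bins before had 1 to 8, and 10 and 5 RNA polymerase II peaks against input. Neither library had a peak against IgG in these 2 bins, and antibody 2 had 1 and 2 against IgG and 5 and 10 against input, where the 8 bins before had 3 to 11 against input.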
